A study of Homo sapiens with 4 samples.

Results

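The genes described here are interferon-stimulated genes together with the receptors, kinases and transcription factors that carry interferon signals, 57 genes named in a list and looked up by symbol. Of these, 56 matched the transcripts measured, out of 34080 genes in all, and ISG15 matched no transcript identifier and was not analysed here. HK-2 is an immortalised cell line from the proximal tubule of human kidney, here with a Tet-On 3G system in which doxycycline switches on HA-PRCC-TFE3, an HA-tagged fusion of parts of PRCC and TFE3 that is found in TFE3-rearranged renal cell carcinoma. The Doxy(+) group was cultured with 0.2 microg/ml doxycycline for 24 h and the Doxy(-) group was cultured without it, and both groups carry the transgene. Each group had 2 libraries of polyadenylated RNA, numbered 1 and 2, and the labels do not say whether they came from separate cultures or clones, so p-values measure only the spread between these libraries. Both groups being of the transgenic line, what doxycycline itself does and what the fusion does cannot be told apart.

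Type I interferons bind the receptor chains IFNAR1 and IFNAR2, and interferon gamma binds IFNGR1 and IFNGR2. The type I receptor signals through the kinases JAK1 and TYK2 to STAT proteins. STAT2 with IRF9 forms part of the factor ISGF3, which binds interferon-stimulated response elements in the promoters of antiviral genes. The products of these genes sense foreign RNA and DNA, restrict entry and translation of viruses, or attach the ubiquitin-like protein ISG15 to other proteins. In epithelial cells a basal level of many of these transcripts is found without infection.

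The libraries held between 14042545 and 16618401 estimated reads, and between 12654233 and 15012743 reads fell on matched genes. TFE3, which carries the reads of the transgene, stood at 66.9 and 69.0 CPM (counts scaled to the TMM-adjusted library size) in Doxy(-), against 367 and 322 CPM in Doxy(+), in the direction the labels give. Of 12 proximal tubule markers, only 3 (PAX8, GGT1 and SLC5A2) were above 1 CPM in every library, and LRP2, AQP1 and HNF4A had at most 1 read in any library. Of 5 epithelial markers, 4 were above 1 CPM in every library. Of 8 markers of white blood cells, only CD68, which encodes a lysosomal glycoprotein, was above 1 CPM in every library. CD3E had 0 reads in all 4 libraries and PTPRC had between 5.07 and 8.94 reads. Of 4 endothelial markers, 0 reached 1 CPM in every library, and of 4 fibroblast markers (COL1A1, COL1A2, DCN and LUM) 3 did. The summed marker level was 1370 and 1390 CPM in Doxy(-) and 1110 CPM in both Doxy(+) libraries for the epithelial list, between 146 and 152 CPM against 191 CPM for the white blood cell list, nearly all of it CD68, between 0.545 and 0.777 CPM against 0.933 and 1.05 CPM for the endothelial list, between 186 and 196 CPM against 202 and 204 CPM for the fibroblast list, and between 640 and 649 CPM against 669 and 697 CPM for the proximal tubule list. The part of these differences in the results was not tested. In bulk RNA, fewer cells with a transcript and less of it per cell cannot be told apart.

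First, it was asked how many of the interferon genes differed between Doxy(+) and Doxy(-). After the low-count filter 50 of the 57 remained for testing, and 11 had an edgeR adjusted p under 0.05, which is 22% of those tested, where 19.3% of all 13569 genes tested passed. In Doxy(+), 8 interferon genes rose (16%, against 9.76% of all genes) and 3 fell (6%, against 9.53% of all genes). The 8 that rose were IFI16, SAMD9L, GBP2, STAT2, UBE2L6, IFIT3, HERC5 and PARP9, and the 3 that fell were IRF1, GBP1 and JAK1. No member (0 of 50) was past the second limit of the study, a log2 fold change beyond 1 or -1, whatever its p, since the values ran from -0.62 to 0.92, while 1.98% of all genes were past both limits. At an unadjusted p under 0.05 there were 22 members, 15 higher and 7 lower. The share of all genes at that unadjusted limit was not counted. Numbers at that limit, here and by role below, therefore cannot be set against all genes. Each role below holds few genes, and its share was not tested against that of all genes. The log2 fold change was above 0 for 34 of the 50 genes and its median was 0.14, where 50.1% of all genes were above 0 and the median of all genes was 0.000616. The 2 groups did not overlap for 38 of the 50 genes, 28 higher and 10 lower, where 31.1% of all genes were apart and higher and 30.0% apart and lower (61.1% in either direction).

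**Figure D1:**
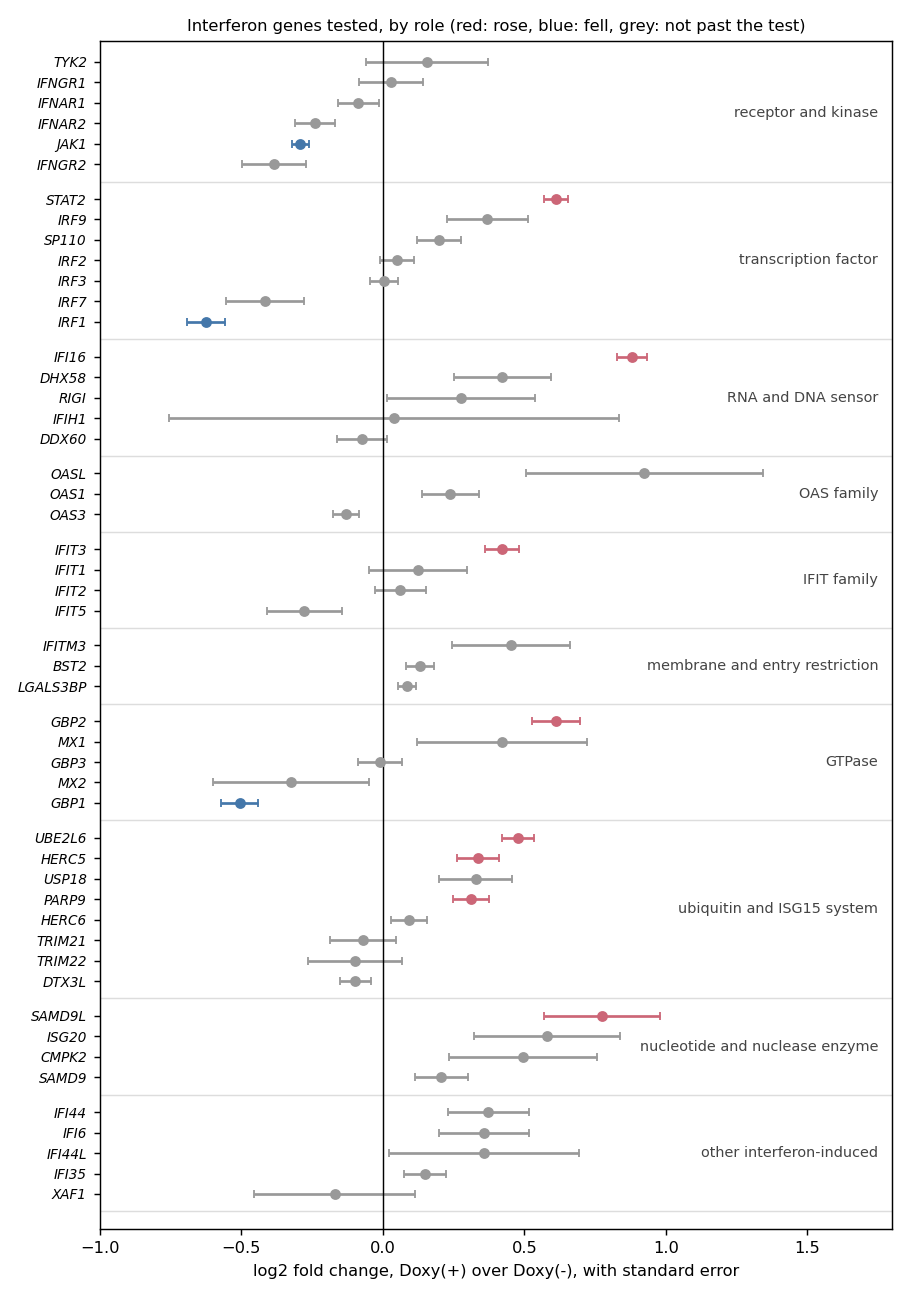
The log2 fold change of Doxy(+) over Doxy(-) is plotted for the 50 interferon genes tested, grouped by role, with bars for the standard error of the edgeR fit (2 libraries per group). Genes that rose are red, genes that fell are blue, and the 39 that did not pass the test are grey and lie between -0.42 and 0.92.

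The transcripts of the interferons themselves were examined next. A list of 21 interferon ligand genes was looked up, of which 20 matched, and 0 of the 20 passed the low-count filter. Over all 4 libraries these genes held 8 estimated reads in total, and the highest single value was 2 reads, for IFNE in Doxy(-) 1. IFNB1, the type I interferon that many cells make on sensing nucleic acid, had 1 read in Doxy(+) 1 and 0 reads in the other libraries. IFNG had 0 reads in all 4. A difference in the ligands was therefore not detectable at this depth, where a count of 0 allows up to 3 reads, equal to 0.217 CPM for Doxy(-) and 0.228 CPM for Doxy(+). Without molecular identifiers, this limit is one of counting error alone.

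Among the 6 receptor and kinase genes, 1 fell (16.7%, beside 9.53% of all genes) and 5 did not pass the test. JAK1 (ENSG00000162434.14, chromosome 1, 64833223 to 65067754, minus strand), the kinase shared by all interferon receptors, stood at 722 and 734 CPM in Doxy(-), against 588 and 602 CPM in Doxy(+). Both Doxy(+) libraries lay below both Doxy(-) libraries, which was so for 30.0% of all genes tested. The JAK1 log2 fold change was -0.29 (edgeR adjusted p 0.00182, SE 0.0294). On log2(TPM + 1) with limma its adjusted p was 0.059, and on log2(TPM + 0.1) it was 0.0616, with values of -0.26 in both. Its partner TYK2 was at 47.5 and 72.9 CPM in Doxy(-), against 58.0 and 76.5 CPM in Doxy(+). The groups overlapped, the spread within a group was wider than the difference between groups, and the sign of the TYK2 difference turned when single libraries were left out.

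The 4 receptor chains were lower or level in Doxy(+) and none of the 4 passed the test by edgeR, while 2 of them had an unadjusted p under 0.05, and DESeq2 and limma called 0 as well. IFNGR2, the signalling chain of the interferon gamma receptor, was at 20.02 and 18.2 CPM in Doxy(-), against 15.5 and 13.7 CPM in Doxy(+), with a log2 fold change of -0.38 (edgeR adjusted p 0.0629, SE 0.112). IFNAR2, the high-affinity chain of the type I receptor, was at 63.2 and 57.3 CPM in Doxy(-), against 49.2 and 52.7 CPM in Doxy(+), with a log2 fold change of -0.24 (edgeR adjusted p 0.0679, SE 0.0715). For both genes the 2 groups did not overlap, which was also so for 61.1% of all genes tested. IFNGR2 passed when transcripts repeated under other identifiers were added to their genes (adjusted p 0.0312, against a range of 0.0312 to 0.242), and IFNAR2 passed in 2 of 14 alternatives. IFNAR1 (39.4 and 41.4 CPM against 40.0 and 36.2 CPM) and IFNGR1 (17.7 and 21.3 CPM against 19.8 and 20.2 CPM) overlapped between groups.

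**Figure D2:**
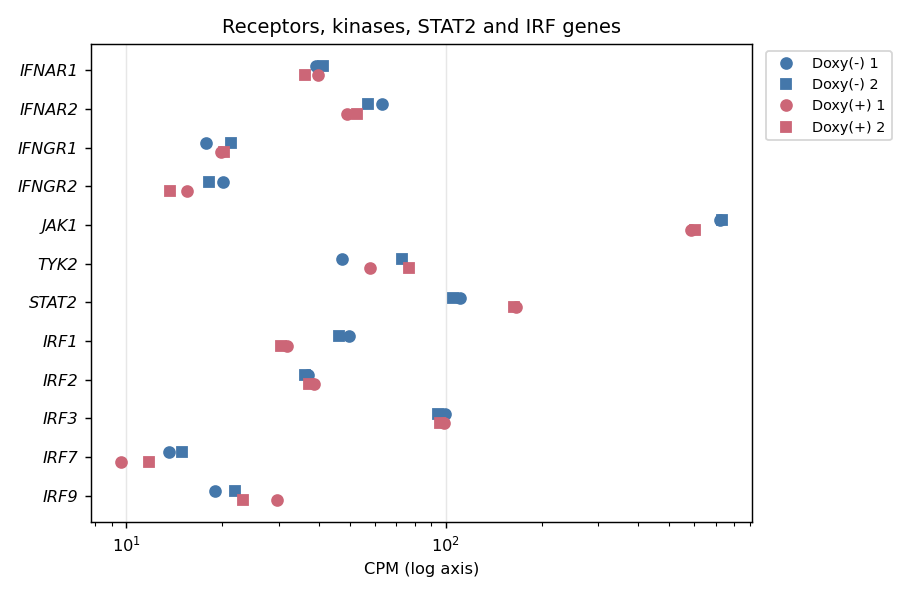
CPM on a log axis in each of the 4 libraries (circles replicate 1, squares replicate 2, blue Doxy(-), red Doxy(+)) for the interferon receptor chains, the 2 kinases, STAT2 and the 5 IRF genes. STAT2 rose from 106 and 110 to 164 and 166 CPM, IRF1 and JAK1 moved down, and the TYK2 points of the 2 groups interleave.

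The transcription factors moved in both directions. STAT2 (ENSG00000170581.15, chromosome 12, 56341597 to 56360203, minus strand), the subunit that gives ISGF3 its activation domain, stood at 110 and 106 CPM in Doxy(-), against 166 and 164 CPM in Doxy(+). The groups were well apart and the means ± SD were 108 ± 3.33 and 165 ± 1.79 CPM (n = 2 each), for a log2 fold change of 0.61 (edgeR adjusted p 0.000518, SE 0.0423). Transcripts annotated as protein coding held between 31.0% and 34.4% of the STAT2 reads of a library, with 461 and 482 reads in Doxy(-) and 737 and 741 reads in Doxy(+). IRF1 (ENSG00000125347.15, chromosome 5, 132440440 to 132508719, minus strand), a factor that itself responds to interferon gamma, went the other way, from 49.9 and 46.3 CPM to 31.9 and 30.6 CPM. Its log2 fold change was -0.62 (edgeR adjusted p 0.00233, SE 0.0676), close in size to that of STAT2. Exons of IRF1 overlap those of IRF1-AS1 on the other strand, and whether the counting used strand is not given in the sources used here, so reads of that overlap cannot be told apart.

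IRF9, the DNA-binding partner of STAT2 in ISGF3, was at 19.0 and 21.8 CPM in Doxy(-), against 29.7 and 23.2 CPM in Doxy(+). The groups did not overlap, which was also so for 61.1% of all genes tested, and Doxy(+) 2 lay close to Doxy(-) 2. The log2 fold change of 0.37 (edgeR adjusted p 0.129, SE 0.142) did not pass. The IRF9 value was 0.79 with length-scaled counts, and its adjusted p ranged from 0.0506 to 0.478 over the alternatives. Coding transcripts held 61.8% and 39.5% of the IRF9 reads in Doxy(-) and 41.6% and 14.6% in Doxy(+). IRF7, which amplifies type I interferon production, was at 13.6 and 14.9 CPM in Doxy(-), against 9.62 and 11.7 CPM in Doxy(+), with a log2 fold change of -0.42 (edgeR adjusted p 0.0877, SE 0.137). IRF3, the constitutive factor that IRF7 resembles, was at 99.4 and 94.4 CPM against 98.5 and 95.9 CPM, with overlapping groups. IRF2, which competes with IRF1 at its sites, was at 37.0 and 36.4 CPM against 38.7 and 37.4 CPM. SP110, a nuclear body protein, had a log2 fold change of 0.20 (edgeR adjusted p 0.134). Thus 2 of 7 transcription factors passed (28.6%, beside 19.3% of all genes), STAT2 upward and IRF1 downward.

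To see what the promoters of these genes share, RefSeq promoter windows of GRCh38.p14, from 250 bases before to 50 bases after each start, were searched on both strands. A window was found for 44 of the 57 genes. The core of the interferon-stimulated response element, read as GAAA, any 2 bases and GAAA, was present in a window of 26 of the 44 (59.1%), against 4.38% of 27305 genes with a window. The letters TTCNNNGAA of the gamma-activated site were present in 12 (27.3%, against 9.38%). The E-box letters CACGTG were present in 3 (HERC5, IRF9 and ISG20, 6.82%, against 8.77%), and TCACGTG, a longer form that contains CACGTG, in IRF9 alone (2.27%, against 4.49%). These genes were listed as interferon-stimulated, so the first 2 shares are a description of the list. The response element core stood in windows of 3 of the 7 genes that rose and have a window, in 1 of the 3 that fell (GBP1), and in 17 of the 29 that did not pass. Both IFI16 and STAT2, the genes with the smallest p-values, had 0 matches to any of the 4 motifs in their windows.

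Stretches before the start are shown for HERC5 and IFIT3, which rose, for SAMD9, which carries the same core and did not pass the test, and for IRF1, which fell. Capitals mark the response element core (or its complement, TTTC, any 2 bases and TTTC) in HERC5, IFIT3 and SAMD9, and TTCNNNGAA in IRF1. The stretches are chr4:88456974-88457074 (plus strand), chr10:89327821-89327904 (plus strand), chr7:93118086-93118135 (minus strand) and chr5:132490869-132490917 (minus strand) of GRCh38.p14, each upstream of the RefSeq start and outside annotated exons.
HERC5: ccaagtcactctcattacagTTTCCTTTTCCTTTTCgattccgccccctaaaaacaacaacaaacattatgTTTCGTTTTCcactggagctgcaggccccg
IFIT3: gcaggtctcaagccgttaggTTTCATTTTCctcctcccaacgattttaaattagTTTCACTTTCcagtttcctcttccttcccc
SAMD9: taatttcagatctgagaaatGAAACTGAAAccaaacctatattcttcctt
IRF1: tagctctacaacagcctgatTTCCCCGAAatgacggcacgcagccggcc
In the stretches shown, HERC5 held 3 matches between 145 and 45 bases before its start, of which the first 2 share bases. IFIT3 held 2, which began 156 and 122 bases before its start. SAMD9 and IRF1 held 1 each, which began 136 and 124 bases before their starts. Another RefSeq window of IFIT3 held matches 94 and 51 bases before its start, and its stretch is not shown. A match is a description of the letters and not evidence of binding.

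Sensors of nucleic acid included the member with the smallest p. IFI16 (ENSG00000163565.20, chromosome 1, 158999968 to 159055155, plus strand), which binds DNA in the nucleus and cytosol, stood at 76.9 and 83.6 CPM in Doxy(-), against 149 and 147 CPM in Doxy(+). It rose 1.84-fold, from a mean ± SD of 80.2 ± 4.71 to 148 ± 1.10 CPM (n = 2 each), with a log2 fold change of 0.88 (edgeR adjusted p 0.000326, SE 0.0529). Over the 14 alternatives its value lay between 0.82 and 0.96 and it passed in all 14. The RNA helicases did not pass. DHX58, which modulates the other helicases, was at 5.07 and 6.04 CPM in Doxy(-), against 7.55 and 7.35 CPM in Doxy(+), with a log2 fold change of 0.42 (edgeR adjusted p 0.147). RIGI was at 6.77 and 8.83 CPM against 7.25 and 11.7 CPM, DDX60 at 24.6 and 25.8 CPM against 22.8 and 25.2 CPM, and in both the groups overlapped. IFIH1 was near the limit of detection, at between 0.314 and 1.31 CPM, and its canonical transcript was not analysed here.

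The interferon-inducible GTPases held members that moved in opposite directions. GBP2 (ENSG00000162645.13, chromosome 1, 89106132 to 89150456, minus strand), a guanylate-binding protein that acts on intracellular pathogens, was at 21.7 and 20.7 CPM in Doxy(-), against 30.8 and 34.0 CPM in Doxy(+). It rose by 0.61 on the log2 scale (SE 0.0847, edgeR adjusted p 0.0054). GBP1 (ENSG00000117228.11, chromosome 1, 89051882 to 89065360, minus strand), its paralog 40771 bases away, was at 46.6 and 50.4 CPM in Doxy(-), against 34.3 and 34.1 CPM in Doxy(+). GBP1 had a log2 fold change of -0.51 (edgeR adjusted p 0.00407, SE 0.0642). The ratio of GBP2 to GBP1 CPM within a library went from 0.465 and 0.411 in Doxy(-) to 0.90 and 0.995 in Doxy(+). With GBP2 higher and GBP1 lower in these same libraries, the ratio had to move this way, so it adds nothing to their calls. GBP3 in the same cluster was at 28.9 and 30.4 CPM against 28.3 and 30.7 CPM, with overlapping groups. GBP1 lost its call with limma on TPM (adjusted p 0.0731 and 0.073). Reads shared by such paralogs can be divided by the quantifier, and GBP2 also shares exon bases with GBP7. MX1 and MX2, dynamin-like GTPases that block viruses, were each under 4 CPM in every library, and neither passed (log2 fold change 0.42 and -0.32). All MX2 reads lay on transcripts that retain an intron and its coding transcripts were at 0 in every library, while coding transcripts held between 24.7% and 66.7% of the MX1 reads, so these values do not describe the GTPase transcripts alone.

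In the ISG15 conjugation system and its ubiquitin relatives, 3 of the 8 genes tested rose (37.5%, beside 9.76% of all genes) and 5 did not pass. UBE2L6 (ENSG00000156587.16, chromosome 11, 57551656 to 57568284, minus strand), the conjugating enzyme for ISG15, was at 39.1 and 38.5 CPM in Doxy(-), against 53.2 and 54.9 CPM in Doxy(+). It rose 1.39-fold (edgeR adjusted p 0.00293, log2 fold change 0.48 with SE 0.0555) and passed in all 14 alternatives. HERC5 (chromosome 4, 88457119 to 88506163, plus strand), the main ligase for ISG15, was at 43.7 and 40.4 CPM in Doxy(-), against 50.4 and 55.6 CPM in Doxy(+), with a log2 fold change of 0.34 (edgeR adjusted p 0.0274, SE 0.0744). The neighbouring HERC6, 14021 bases away, was at 32.0 and 32.8 CPM against 34.7 and 34.4 CPM (edgeR adjusted p 0.365, log2 fold change 0.09). USP18, the protease that removes ISG15, was at 7.76 and 8.17 CPM against 10.1 and 9.91 CPM. Its groups were apart, as were those of 61.1% of all genes tested, and it was not past the test (edgeR adjusted p 0.136, log2 fold change 0.33).

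PARP9 and its partner DTX3L, an ADP-ribosyltransferase and a ubiquitin ligase that work as a complex, lie head to head on chromosome 3 with 240 bases of overlap between their genes. PARP9 (122527924 to 122564577, minus strand) was at 40.6 and 42.3 CPM in Doxy(-), against 49.7 and 53.4 CPM in Doxy(+), and rose by 0.31 on the log2 scale (SE 0.0634, edgeR adjusted p 0.0205). DTX3L (122564338 to 122575203, plus strand) was at 117 and 124 CPM in Doxy(-), against 117 and 109 CPM in Doxy(+), with a log2 fold change of -0.10 (edgeR adjusted p 0.287, SE 0.0559). The PARP9 to DTX3L ratio went from 0.346 and 0.341 in Doxy(-) to 0.424 and 0.491 in Doxy(+), which follows from these same values and is no further test. The canonical PARP9 transcript was not analysed here, and exons of the pair overlap on opposite strands, so some reads cannot be told apart. Of the antiviral ubiquitin ligases, TRIM21 (-0.07) and TRIM22 (-0.10) had log2 fold changes within the spread between replicates.

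The calls of HERC5 and PARP9 passed in 8 of 14 alternatives each. Both were lost with limma on log2(TPM + 1) and log2(TPM + 0.1), with length-scaled counts and at an adjusted p under 0.01. They also depended on single libraries. Without Doxy(+) 2 the adjusted p was 0.148 for HERC5 and 0.133 for PARP9. Without Doxy(-) 2 that of HERC5 was 0.0654 and without Doxy(+) 1 that of PARP9 was 0.0542, while the direction of both was the same under all 14 alternatives.

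Among antiviral effectors, the IFIT family, which binds viral RNA ends, had 1 of 4 members that rose (25%, beside 9.76% of all genes). IFIT3 (ENSG00000119917.15, chromosome 10, 89327307 to 89377473, plus strand) was at 44.7 and 42.3 CPM in Doxy(-), against 56.97 and 59.3 CPM in Doxy(+), a 1.34-fold rise (edgeR adjusted p 0.0059, log2 fold change 0.42 with SE 0.0597). Its neighbour IFIT2, 18035 bases away, was at 17.1 and 16.8 CPM against 17.9 and 17.5 CPM. IFIT1 was at 5.58 and 5.31 CPM against 6.21 and 5.66 CPM, and IFIT5 at 10.6 and 9.69 CPM against 8.63 and 8.04 CPM, and neither passed (log2 fold change 0.12 and -0.28). Some exons of IFIT3 overlap those of LIPA on the other strand. The OAS enzymes, which make short oligoadenylates on binding double-stranded RNA, had 0 calls among 3 tested, where 19.3% of all genes passed. By unadjusted p under 0.05 there was 1, OAS3. DESeq2 and limma also called 0. OAS3 was at 123 and 121 CPM against 109 and 114 CPM (edgeR adjusted p 0.0984, log2 fold change -0.13). OAS1 had a log2 fold change of 0.24 and OASL, at between 0.698 and 1.79 CPM, of 0.92 (SE 0.418, edgeR adjusted p 0.185).

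Of the genes for nucleotide and nucleic acid enzymes and their relatives, 1 of 4 tested rose (25%, beside 9.76% of all genes). SAMD9L (chromosome 7, 93130056 to 93148385, minus strand), an antiviral and growth-restraining protein, was at 4.58 and 3.54 CPM in Doxy(-), against 7.30 and 6.55 CPM in Doxy(+), with a log2 fold change of 0.77 (edgeR adjusted p 0.0474, SE 0.205). That call lay close to the limit and was lost under 8 of 14 alternatives, with an adjusted p of 0.0952 by DESeq2, 0.121 without Doxy(-) 2, 0.206 without Doxy(+) 1 and 0.116 without Doxy(+) 2. SAMD9, next to it, was at 17.2 and 17.1 CPM against 19.0 and 20.6 CPM (edgeR adjusted p 0.181, log2 fold change 0.21). CMPK2 and ISG20, at most 3.43 CPM in any library, had log2 fold changes of 0.49 and 0.58 and did not pass.

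The restriction factors of the cell surface and the remaining interferon-induced genes did not pass, 0 of 8 tested by edgeR, DESeq2 or limma, with 3 at an unadjusted p under 0.05. By edgeR, 19.3% of all genes passed. LGALS3BP, a secreted glycoprotein, was at 402 and 389 CPM against 419 and 420 CPM (edgeR adjusted p 0.12, log2 fold change 0.08). BST2, which tethers budding viruses, was at 149 and 141 CPM against 164 and 154 CPM (edgeR adjusted p 0.128, log2 fold change 0.13). IFITM3, which blocks viral fusion, was at 5.20 and 5.11 CPM against 8.18 and 5.95 CPM, and it has 9 annotated pseudogenes that can share its reads. IFI6, IFI35, IFI44, IFI44L and XAF1 had log2 fold changes between -0.17 and 0.37, with 1 of the 5, IFI44, at an unadjusted p under 0.05. Coding transcripts held between 9.44% and 32% of the XAF1 reads of a library.

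A further 6 members were under the low-count filter. RSAD2 had 6.03 and 10.2 reads in Doxy(-) and 5.01 and 6.36 in Doxy(+), IFITM1 between 6.05 and 12.7, EPSTI1 between 2 and 6, and OAS2 had 2 and 3 reads in Doxy(-) against 9 in each Doxy(+) library. IFI27 had 0 and 1 reads in Doxy(-) and 2.36 and 5.68 in Doxy(+), all on transcripts that retain an intron. IFITM2 was listed at 0 in all 4 libraries. The canonical transcripts of IFI27 and IFITM2 were not analysed here. The IFI27 values do not describe its coding transcripts, and those of IFITM2 cover 3 other coding transcripts, each at 0.

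**Figure D3:**
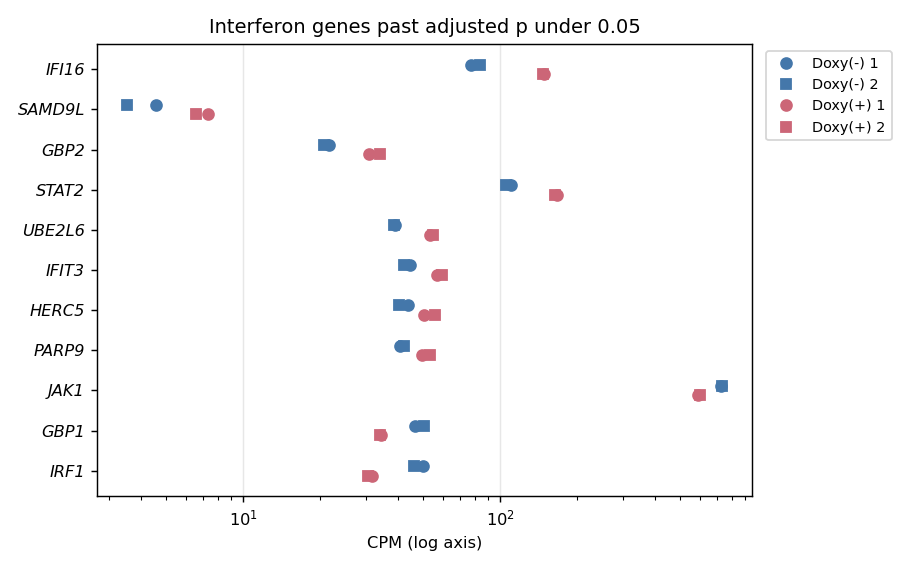
CPM on a log axis in each of the 4 libraries (circles replicate 1, squares replicate 2, blue Doxy(-), red Doxy(+)) for the 11 interferon genes with an edgeR adjusted p under 0.05, ordered by log2 fold change. IFI16 moved from 76.9 and 83.6 to 149 and 147 CPM, and for each of the 11 genes the points of the 2 groups do not overlap. The 11 were chosen by a test on these same values, so the lack of overlap adds nothing to their calls. Of all genes tested, 61.1% did not overlap.

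Levels were compared between genes on the TPM scale, which corrects for transcript length. In Doxy(-), 33 of the 56 genes had a mean of at least 10 TPM, 16 lay between 1 and 10 TPM, 7 were under 1 TPM, and the median was 13.7 TPM. LGALS3BP was the highest with 411 and 399 TPM in the Doxy(-) libraries. JAK1 (241 and 225 TPM) and BST2 (234 and 221 TPM) followed and overlapped each other, and IRF3 (130 and 153 TPM) lay below them. STAT2, at 73.5 and 69.8 TPM, was above TYK2, at 55.3 and 62.6 TPM, and the latter overlapped IFI16, at 56.5 and 56.2 TPM. In Doxy(+), IFI16 reached 114 and 106 TPM and STAT2 107 and 108 TPM, and the 2 genes overlapped. Over transcripts annotated as protein coding, STAT2 was at 16.2 and 14.8 TPM in Doxy(-), against 26.7 and 25.9 TPM in Doxy(+). By that measure STAT2 lay below IFI16 in every library, as IFI16 was at 43.6 and 46.1 TPM against 90.8 and 86.2 TPM. Coding transcripts of TYK2 were at 10.9 and 27.1 TPM in Doxy(-), which overlapped STAT2 and lay below IFI16. IRF1, at 37.9 and 39.3 TPM in Doxy(-), was above IRF9, at 22.0 and 31.5 TPM, and in Doxy(+) IRF9, at 46.0 and 44.9 TPM, was above IRF1, at 26.9 and 27.7 TPM. That order held only for the sum of all transcripts. Over transcripts annotated as protein coding, IRF9 was at 9.82 and 7.57 TPM in Doxy(-), against 11.8 and 3.54 TPM in Doxy(+), and lay below IRF1 in every library, since the latter was at 31.1 TPM in both Doxy(-) libraries and at 20.3 and 18.4 TPM in Doxy(+). On the CPM scale IRF9 was also below IRF1 in every library. In Doxy(-), the lower end held some genes that are strongly induced in infected cells, such as IFIT1 (4.31 and 4.09 TPM), MX1 (4.11 and 4.59 TPM), OAS2 (0.113 and 0.0827 TPM) and RSAD2 (0.33 and 0.29 TPM). Other interferon-induced members lay above 10 TPM there, among them IFIT3 (26.9 and 25.2 TPM), IFI6 (26.6 and 19.7 TPM) and OAS1 (12.74 and 15.35 TPM). Coding transcripts of MX1 were at 0.288 and 0.460 TPM in Doxy(-).

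**Figure D4:**
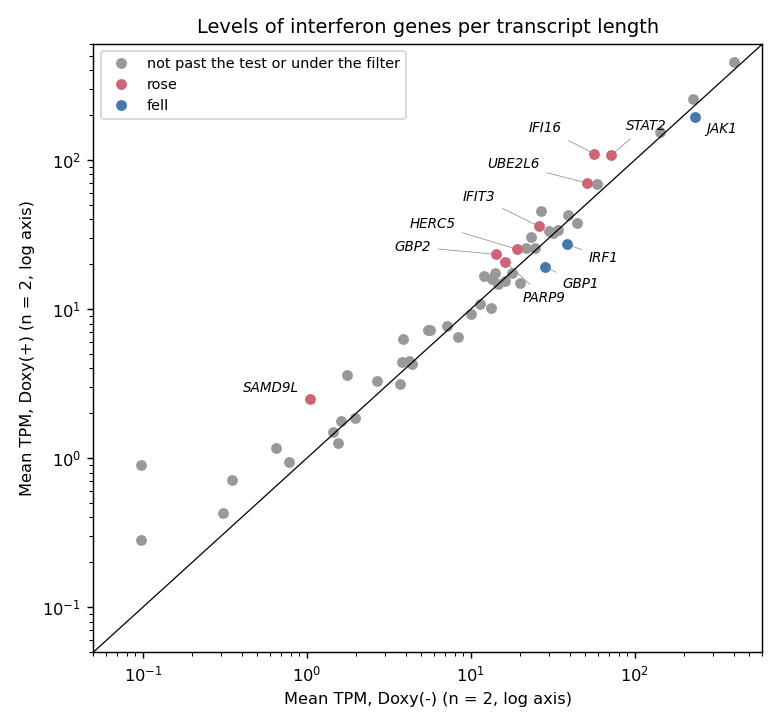
Mean TPM in Doxy(+) against mean TPM in Doxy(-) on log axes (n = 2 libraries per group) for the matched interferon genes with a value above 0, with the line of equal level. The 8 genes that rose (red) lie above the line, the 3 that fell (blue) below it, and most other genes (grey) close to it, and the lowest Doxy(-) mean is 0.0971 TPM for IFI27.

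Other genes of the pathway were taken from a list of 106 written from general knowledge. Of these, 71 were tested, 9 rose (12.7%) and 4 fell (5.63%), beside 9.76% and 9.53% of all genes, and the median log2 fold change was 0.06. Genes past a log2 fold change of 1 as well came to 0. Among the 17 tested genes of sensing and its adaptors, 3 rose (17.6%) and 2 fell (11.8%). TRIM25, the ubiquitin ligase that activates RIGI, was at 158 and 161 CPM in Doxy(-), against 211 and 216 CPM in Doxy(+) (edgeR adjusted p 0.00103, log2 fold change 0.42 with SE 0.0363). TRAF3, an adaptor that relays sensor signals, was at 92.2 and 88.5 CPM against 79.8 and 78.2 CPM (edgeR adjusted p 0.0433, log2 fold change -0.19). MYD88, the adaptor of toll-like receptors, was at 25.3 and 28.1 CPM against 21.3 in each Doxy(+) library (edgeR adjusted p 0.0494, log2 fold change -0.33). The calls of TRAF3 and MYD88 were lost under 8 and 11 of 14 alternatives. CGAS, STING1, MAVS and TBK1, the core of DNA and RNA sensing, had log2 fold changes of 0.02, 0.14, -0.04 and 0.11 and did not pass.

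Of the 12 feedback regulators 2 rose (16.7%, beside 9.76% of all genes), PTPN1 and PIAS2. PTPN1, a phosphatase that acts on JAK and TYK kinases, was at 156 and 152 CPM in Doxy(-), against 191 and 184 CPM in Doxy(+) (edgeR adjusted p 0.00541, log2 fold change 0.28 with SE 0.0391), and without Doxy(+) 1 its adjusted p was 0.0564. SOCS1, a direct inhibitor of JAK kinases that interferon induces, was at 0.776 and 1.02 CPM against 1.09 and 1.64 CPM, and SOCS3 at 40.7 and 40.9 CPM against 38.7 and 39.6 CPM, and neither passed. Among 36 further interferon-stimulated genes tested, 4 rose (11.1%) and 2 fell (5.56%), beside 9.76% and 9.53% of all genes. SP100, a nuclear body protein related to SP110, was at 53.4 and 47.6 CPM in Doxy(-), against 74.5 and 78.7 CPM in Doxy(+) (edgeR adjusted p 0.00339, log2 fold change 0.60 with SE 0.0729). The TRIM25 and RNF213 calls were lost with limma, and that of RNF213 also with length-scaled counts. RNF213, a large ubiquitin ligase, was at 281 and 259 CPM against 340 and 363 CPM (edgeR adjusted p 0.00561, log2 fold change 0.38). PML, the scaffold of the bodies in which SP100 sits, was lower, at 81.5 and 83.6 CPM against 67.5 and 68.5 CPM (edgeR adjusted p 0.0128, log2 fold change -0.28), and so was PARP12, at 40.7 and 41.4 CPM against 32.0 and 34.4 CPM (-0.30, edgeR adjusted p 0.025). The calls of PML and PARP12 were lost without Doxy(+) 1 (adjusted p 0.0987 and 0.146) and without Doxy(+) 2 (0.0728 and 0.0673), and that of PARP12 also without Doxy(-) 2 (0.0558). The PML and PARP12 calls were also lost with both limma settings, with length-scaled counts and at an adjusted p under 0.01. CXCL9, CXCL11, GBP5 and IDO1 had 0 reads in all 4 libraries, and CXCL10 had at most 1.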

How the data were processed

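Polyadenylated RNA of 4 HK-2 libraries was measured. Per the study's methods and the submitters' processing notes, single-end reads were trimmed with Trim Galore 0.6.6 (cutadapt 2.5) and aligned to hg38 with STAR 2.7.9a. The deposited files instead hold kallisto-style columns over 180253 Ensembl transcript identifiers. The estimated counts deposited by the authors are expected counts per transcript, not normalized, and the deposited TPM values are the authors' length-corrected levels. The quantifier, its version and its use of strand are not given in the sources used here.

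Through GENCODE release 44, 83.6% of identifiers matched 34080 genes, and counts were summed per gene over all its transcripts, coding or not. Unmatched identifiers took 9.66% to 9.89% of the counts of a library and were left out throughout. Rounded sums went into edgeR 4.0.16 under R 4.3.3 (glmQLFit and glmQLFTest, TMM, filterByExpr, group as the only term), with Benjamini-Hochberg adjustment over 13569 genes. A gene "rose" or "fell" at an adjusted p under 0.05. Standard errors follow from the F statistic. The fits were tested on simulated data. Alternatives used RLE factors, other filters, DESeq2 1.42.0, limma 3.58.1 on log2(TPM + 1) and log2(TPM + 0.1) for genes with a mean of at least 1 TPM, a left-out library, a replicate block, copies of matched transcripts added, length-scaled counts, and an adjusted p under 0.01.

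The members and lists were chosen with earlier results of these data known. All members are accounted for. Values in every library are given for those past the test and for the receptors, kinases, STAT2 and IRFs, and other pathway genes are named when among the 4 smallest p-values in each direction. Other genes were named after their values were seen.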

Additional observations from a re-analysis of the deposited data

How the results depend on the processing

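Of the 11 interferon genes past the test, 6 (IFI16, STAT2, IRF1, IFIT3, GBP2 and UBE2L6) passed under all 14 alternatives, and each of the 11 kept its direction under all 14. The number that rose, 8, was 5 with limma on log2(TPM + 1) and on log2(TPM + 0.1), 5 with length-scaled counts and 5 at an adjusted p under 0.01. The number that fell, 3, was 1 with both limma settings. Leaving out a library gave 5 to 9 that rose (5 without Doxy(+) 2) and 3 to 4 that fell. Genes gained were IFNAR2 (no low-count filter, or without Doxy(-) 2), IFNGR2 and DHX58 (copies added) and IFI6 (without Doxy(-) 1). Over all genes, 598 rose and 306 fell with limma on log2(TPM + 1), 590 and 299 on log2(TPM + 0.1), 677 and 583 with length-scaled counts, and 621 and 554 at an adjusted p under 0.01. Leaving out a library gave 647 to 1233 that rose and 565 to 1308 that fell over all genes, with 647 and 565 without Doxy(+) 1 and 686 and 642 without Doxy(+) 2. Of the other pathway genes, 3 rose and 0 fell on log2(TPM + 1), 4 and 0 on log2(TPM + 0.1), 5 and 0 at an adjusted p under 0.01, 2 fell with DESeq2 and 0 fell with length-scaled counts. Leaving out a library gave 6 to 9 that rose and 0 to 3 that fell, 0 without Doxy(+) 1 and without Doxy(+) 2. The cause of these differences between settings was not tested.

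Of the values that did not pass, IFNGR1 turned to -0.024 with length-scaled counts and IRF3 to -0.0041 with no low-count filter. Leaving out a library gave IFNGR1 -0.10 to 0.17, TYK2 -0.12 to 0.50 and IRF3 -0.033 to 0.038, with IFNGR1 below 0 without Doxy(-) 1, TYK2 without Doxy(-) 1 or Doxy(+) 2, and IRF3 without Doxy(-) 2 or Doxy(+) 1.

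Libraries with the same number did not deviate together (correlation of their deviations from the group means -0.0147), and the labels do not say what the number marks. With the replicate block, 8 interferon genes rose and 3 fell, the 11 called without it, and the value of TFE3 was 2.34. Of the 8 other pathway genes named by rule (TRIM25, SP100, PTPN1, RNF213, PML, PARP12, TRAF3 and MYD88), only MYD88 lost its call under the block (adjusted p 0.06). With 2 libraries per group, genes of a few reads such as OASL, SAMD9L and IFIH1 have wide errors.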

Other observations

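Several genes outside the rule for naming were chosen after their values were seen. IRF8, a factor best known from blood cells, had 0 reads in both Doxy(-) libraries and 7 reads in each Doxy(+) library, too few for the low-count filter. TLR3, the receptor for double-stranded RNA in endosomes, rose from 12.1 and 12.7 CPM to 16.8 and 16.1 CPM (edgeR adjusted p 0.0378, log2 fold change 0.41 with SE 0.101). The complement protease gene C1S rose from 16.95 and 14.6 CPM to 24.6 and 25.6 CPM (edgeR adjusted p 0.0083, log2 fold change 0.67 with SE 0.106).

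Single transcripts were also read on the TPM scale, where each value rests on how the quantifier divided shared reads. The most abundant coding transcript of STAT2 was at 16.2 and 14.8 TPM in Doxy(-) and at 26.7 and 22.6 TPM in Doxy(+), and STAT2-207, the most abundant, which has no defined coding sequence, at 24.4 and 23.3 TPM against 37.6 and 37.0 TPM. For IRF1 4 coding transcripts were lower in both Doxy(+) libraries than in both Doxy(-) libraries, IRF1-202 (23.9 and 20.5 TPM against 17.2 and 13.7 TPM), IRF1-203 (2.42 and 6.82 TPM against 1.38 and 2.11 TPM) and a pair of others (4.21 and 3.45 TPM against 1.73 and 2.54 TPM, and 0.606 and 0.351 TPM against 0 in both Doxy(+) libraries). For IRF9 the transcript with the largest gain was IRF9-208, which retains an intron, with 3.06 and 7.03 TPM in Doxy(-) and 11.3 and 15.4 TPM in Doxy(+), while the coding IRF9-202 was at 9.21 and 6.68 TPM against 6.62 and 0.883 TPM and the coding IRF9-203 at 0.603 and 0 TPM against 5.20 and 2.66 TPM. These transcript differences were not tested.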
